A study of Mus musculus with 58 samples.

Results

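Cux1, Cux2, Otof, Calb1 and Rorb are used as markers of neurons in the upper layers of the cortex, and they were chosen by name from the gene column of the count table. All 5 were found among its 9636 genes, and they were followed across 58 bulk RNA libraries by injury, drug treatment, sex and cohort. Every library was labelled as somatosensory cortex of C57BL/6J mice at the chronic time. The mice were 2 to 4 months old and each received 5 daily procedures, either closed head injuries (5xCHI, called injured below) or sham procedures. An intraperitoneal injection followed each procedure after 30 min and held either SB239063 (SB below, 20 mg/kg), a small inhibitor of the stress kinase p38 MAPK, or physiological saline as vehicle. The study text puts the chronic time near 1 month after the last procedure and names days near 18 and 34, with no day given per animal. There were 14 sham vehicle libraries (9 female, 5 male), 20 injured vehicle libraries (12 female, 8 male), 19 injured SB libraries (11 female, 8 male) and 5 sham SB libraries (3 female, 2 male). No group carried a transgene or an allele named in the labels, and all groups shared the injections and were killed under isoflurane. The labels divide each sex into 4 cohorts, F1 to F4 and M1 to M4, without saying what a cohort shares. They also do not say that every library came from a different animal, so p-values measure the spread between these samples.

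The cortex is built of stacked layers, and neurons of different layers send their axons to different targets. Upper layer neurons connect cortical areas with each other or receive input from the thalamus, while many deep layer neurons project below the cortex. Cux1 and Cux2 are paired cut homeobox transcription factors of the upper layers, and Rorb is a nuclear receptor of layer 4 neurons. Calb1 encodes calbindin, a cytosolic calcium buffer that is also present in some interneurons, and Otof encodes otoferlin, a calcium sensor of vesicle release known best from inner hair cells. In bulk tissue, fewer cells of a type and less RNA per cell cannot be told apart.

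Promoter sequences are shown for the 3 transcription factors, so that their starts can be compared. RefSeq's table of gene starts on GRCm38.p6 held 5 starts for these 3 of the 5 genes, all on the minus strand, each with 250 bases before and 50 after the start. The counts were made on another build, GRCm39, and no position is carried between the builds. Capitals mark matches, on either strand, to motifs that were searched by their letters. The first 2 lines are the upstream start of Cux2 at chr5:122049802-122050101 and its downstream start at chr5:122047776-122048075, followed by Cux1 at chr5:136565932-136566231 and the upstream start of Rorb at chr19:19111147-19111446.
Cux2 upstream: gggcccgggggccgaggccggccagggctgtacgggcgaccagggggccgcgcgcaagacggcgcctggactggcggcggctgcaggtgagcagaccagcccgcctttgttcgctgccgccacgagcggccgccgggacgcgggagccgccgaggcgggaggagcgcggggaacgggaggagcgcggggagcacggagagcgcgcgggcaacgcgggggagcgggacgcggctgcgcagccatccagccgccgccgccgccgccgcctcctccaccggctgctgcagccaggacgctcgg
Cux2 downstream: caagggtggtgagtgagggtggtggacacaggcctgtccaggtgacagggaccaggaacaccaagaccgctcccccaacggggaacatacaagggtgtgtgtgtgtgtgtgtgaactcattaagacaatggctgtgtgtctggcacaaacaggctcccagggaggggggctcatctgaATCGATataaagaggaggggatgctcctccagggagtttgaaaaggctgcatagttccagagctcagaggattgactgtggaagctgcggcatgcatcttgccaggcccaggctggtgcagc
Cux1: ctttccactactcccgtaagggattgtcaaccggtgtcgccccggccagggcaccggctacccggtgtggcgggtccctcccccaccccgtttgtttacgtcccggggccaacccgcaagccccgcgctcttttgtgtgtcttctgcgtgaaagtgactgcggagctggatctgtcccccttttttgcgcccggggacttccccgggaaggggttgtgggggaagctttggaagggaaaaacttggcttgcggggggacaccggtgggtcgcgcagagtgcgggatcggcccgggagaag
Rorb upstream: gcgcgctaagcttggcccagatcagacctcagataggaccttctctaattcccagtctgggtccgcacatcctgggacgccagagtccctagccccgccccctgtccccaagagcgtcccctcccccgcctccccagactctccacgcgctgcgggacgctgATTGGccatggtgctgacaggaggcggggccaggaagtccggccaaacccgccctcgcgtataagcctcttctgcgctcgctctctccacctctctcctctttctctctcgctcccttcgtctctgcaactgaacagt
The downstream Cux2 start held ATCGAT, the core bound by cut homeodomain proteins, with its first base at position -72 from the start. That motif was present in 0.925% of all 32851 promoters of the table. The upstream Rorb start held CCAAT on the opposite strand (ATTGG in the line above) at position -88, a motif found in 37.4% of promoters. No match was found in these 5 windows to AGGTCA, the half-site of ROR receptors (16.3% of promoters), or to TGACGTCA, the cAMP response element (1.79%). The palindromes ATCGAT and TGACGTCA read the same on both strands, and none of the matches overlapped another. The starts differed in CpG content, with 48 CpG pairs at the upstream and 4 at the downstream Cux2 start, 25 at the Cux1 start, and 20 and 5 at the upstream and downstream Rorb starts, against a median of 7.0. A match is a description of the letters, and no binding was measured.

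The table held 28316280 to 49158277 counts per library over its listed genes, and the counts of the 5 genes ran from 184 to 8875 per library, so counting error was small beside the spread between samples. Markers of excitatory neurons, of the upper and deep layers and of glia were among the listed genes. No listed gene falls below a mean of 270.1 counts, so the presence of a listed marker was set by that choice and tests nothing. Some markers were not listed, and of 6 layer 4 genes besides Rorb 3 were measured. Striatal markers were listed too, with a summed level of 367 to 1943 CPM (TMM-scaled read counts relative to the library total), and their part in the results was not tested. On the first 4 principal components, 4 libraries lay more than 3.5 median absolute deviations from the median: female sham vehicle replicates 1 and 7, male sham vehicle replicate 2 and female injured SB replicate 8. Female sham vehicle replicate 1, the single sham vehicle library of cohort F2, had the lowest level of all 58 libraries for each of the 5 genes. Its summed myelin markers were the highest of all (21880 CPM), as were its hippocampal (245 CPM) and thalamic (138 CPM) markers. The other 3 libraries showed the opposite order, with summed levels of the 5 genes of 561 to 620 CPM (ranks 5, 6 and 10 from the top) beside myelin sums of 3365 to 5645 CPM.

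Per length of exon, Calb1 had the highest level and Otof the lowest. Mean levels over the 58 libraries were 23.4 ± 5.70 (SD) CPM per kb for Calb1, 16.2 ± 3.30 for Cux2, 6.95 ± 1.28 for Cux1, 5.48 ± 1.54 for Rorb and 2.50 ± 0.997 for Otof. The order held in most libraries: Calb1 exceeded Cux2 in 55 of 58, Cux2 exceeded Cux1 in 58, Cux1 exceeded Rorb in 57 and Rorb exceeded Otof in 55. Cux1 and Rorb were the closest neighbours in this order, with a ratio of 1.26 in the median library (0.887 to 2.39), and the gap between their means was smaller than the SD of Rorb. The exonic length of Cux1 (20024 bases) includes the exons of its alternative transcript, which lacks the homeodomain, and the effect of this on its level per kb was not tested.

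The 5 genes also differed in how far libraries of one group and cohort spread. The residual SD of log2 CPM was 0.47 for Otof, 0.44 for Calb1, 0.41 for Rorb, 0.255 for Cux2 and 0.22 for Cux1, against a median of 0.16 over all genes. Otof varied more than 99.6% of genes, Calb1 more than 99.4% and Rorb more than 99.1%. The transcription factors of the cut family were less variable, with 91.5% of genes below Cux2 and 81.8% below Cux1.

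**Figure D1:**
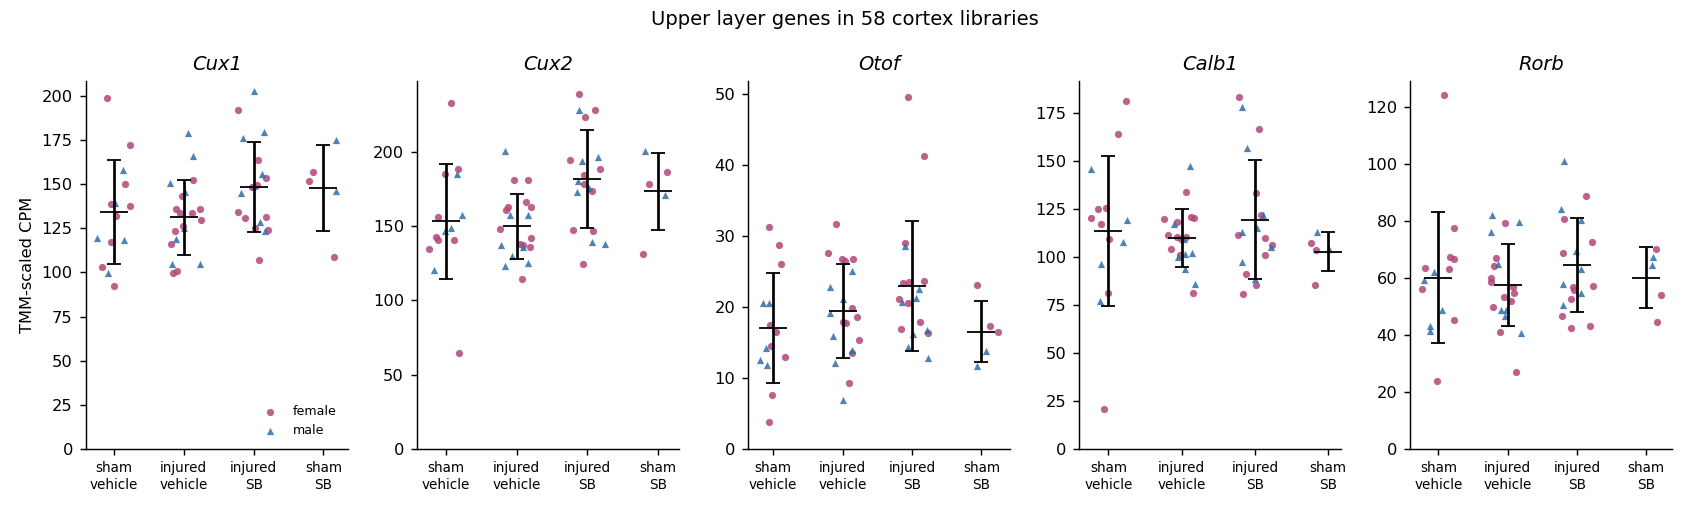
Level of each gene (TMM-scaled CPM, linear axes from 0) in the 58 libraries by condition, with circles for females, triangles for males, and bars for the mean ± SD. The injured SB libraries reach the highest values for Cux1, Cux2, Otof and Calb1, the groups overlap for every gene, and the lowest point of each panel is female sham vehicle replicate 1.

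The comparison of SB with vehicle in injured mice asks what p38 inhibition after each injury left in the cortex at the chronic time. All 5 genes had higher fitted levels with SB, by 1.095 to 1.215-fold, and none passed the threshold of an adjusted p of 0.05. The share of genes above 0 was 52.2% and the median log2 fold change of all genes was 0.0034, against a median of 0.16 for the 5. Cux1 and Cux2 had an unadjusted p below 0.05 in the higher direction, as did 3.41% of the 9636 genes. No gene of the table passed (percent called 0) by edgeR's quasi-likelihood test with Benjamini-Hochberg adjustment or by DESeq2, while 680 genes (7.06%) by edgeR and 705 by DESeq2 had an unadjusted p below 0.05.

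Cux2, a cut homeobox factor, ran from 114 to 201 CPM with a median of 145 in the 20 injured vehicle libraries. In the 19 injured SB libraries it ran from 125 to 239 CPM with a median of 181. The SB libraries were higher in the main, with 16 of 19 above the vehicle median and 4 above the highest vehicle library, though the ranges overlapped. The log2 fold change was 0.27 ± 0.08 (SE, 95% interval 0.11 to 0.43), with an unadjusted p of 0.0011 and an adjusted p of 0.655 (edgeR quasi-likelihood, Benjamini-Hochberg). By unadjusted p it ranked 10 among 9636 genes. Without the 4 libraries that stood apart it was 0.24 ± 0.07.

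Its relative Cux1 ran from 99.7 to 179 CPM in injured vehicle libraries, with a median of 132, and from 107 to 203 CPM with a median of 148 in injured SB libraries. Of the 19 SB libraries, 12 lay above the vehicle median and 3 above the vehicle maximum. The log2 fold change was 0.16 ± 0.07 (unadjusted p of 0.0187, adjusted p of 0.663, edgeR quasi-likelihood with Benjamini-Hochberg), and 0.14 ± 0.07 without the 4 libraries.

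Otof, at the lowest level of the 5, ran from 6.81 to 31.7 CPM (median 18.9) in injured vehicle libraries and from 12.8 to 49.5 CPM (median 21.1) in injured SB libraries. The upper end of the SB group was set by 2 female libraries, replicate 8 at 49.5 CPM and replicate 10 at 41.2 CPM, which were the only ones above the vehicle maximum. Its log2 fold change of 0.28 ± 0.14 was as large as that of Cux2 with a wider interval, from -0.003 to 0.56 (unadjusted p of 0.0524, adjusted p of 0.71, edgeR quasi-likelihood with Benjamini-Hochberg). Without the 4 libraries the log2 fold change was 0.27 ± 0.13.

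The layer 4 gene Rorb and the calcium buffer Calb1 had intervals that span 0. Rorb ran from 26.9 to 82.0 CPM (median 55.8) with vehicle and from 42.3 to 101.2 CPM (median 57.8) with SB, and its log2 fold change was 0.15 ± 0.12 (95% interval -0.10 to 0.40). Calb1 ran from 81.4 to 147 CPM (median 110) with vehicle and from 80.9 to 184 CPM (median 112) with SB, and its log2 fold change was 0.13 ± 0.13 (95% interval -0.13 to 0.39). Adjusted p-values were 0.819 and 0.861 by edgeR's quasi-likelihood test with Benjamini-Hochberg adjustment. The medians of the groups lay close together for both genes, and for Calb1 the spread of the SB group was wider (SD 30.9 against 15.25 CPM). Leaving out male injured SB replicate 2 alone lowered these log2 fold changes to 0.10 for Rorb and 0.08 for Calb1.

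Cohorts gave a second look at the same libraries. With 1 to 5 libraries per arm in each of 8 cohorts, mean Cux2 was higher with SB in 7 cohorts, from 0.05 in M1 to 0.71 in F4 (difference of mean log2 CPM), and the exception, F2, was at -0.01. Cux1 was higher in 6 of 8 cohorts, from -0.07 to 0.39, with F2 and M1 lower. Otof, Calb1 and Rorb were higher in 5 cohorts each. Otof ranged from -0.34 in F1 to 0.92 in M3, Calb1 from -0.38 in M1 to 0.56 in M2, and Rorb from -0.32 in M1 to 0.53 in M3. Cohorts F3, M2 and M3 were higher with SB for each of the 5 genes, F3 by as little as 0.000895 for Calb1, and F4 held a single injured SB library, replicate 8 of those that stood apart.

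**Figure D2:**
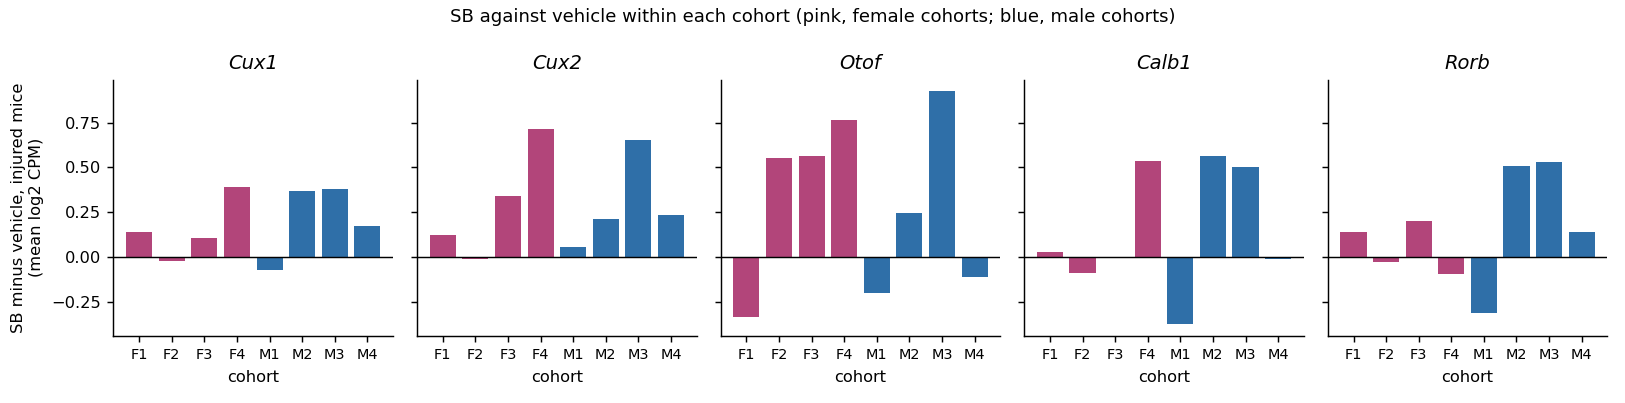
Difference between SB and vehicle in injured mice (mean log2 CPM) within each of 8 cohorts, as bars from 0, for each gene, with female cohorts in pink and male cohorts in blue and no error bars because arms hold 1 to 5 libraries. Cux2 lies above 0 in 7 cohorts and Cux1 in 6, while Otof, Calb1 and Rorb lie above 0 in 5.

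Injury alone, compared in vehicle mice, gave fitted values near 0 for Cux1, Cux2, Calb1 and Rorb, averaged over cohorts that differed in direction. Fitted log2 fold changes were 0.01 ± 0.08 for Cux1, -0.001 ± 0.09 for Cux2, -0.003 ± 0.14 for Calb1 and 0.02 ± 0.14 for Rorb, with adjusted p-values of 1 by edgeR's quasi-likelihood test. None of the 5 genes had an unadjusted p below 0.05, as did 1.75% of all genes, and 0 genes passed adjustment (169 by edgeR and 182 by DESeq2 at an unadjusted p below 0.05). The intervals set limits on what could be missed: for Cux2 they ran from -0.18 to 0.18 and for Calb1 from -0.29 to 0.28. Within cohorts, Cux2 was lower after injury in 6 of 8, Cux1 and Calb1 in 5, Rorb in 4 and Otof in 3. In F2, whose single sham vehicle library was female replicate 1, mean log2 CPM was higher after injury by 0.47 (Cux1), 1.08 (Cux2), 1.32 (Rorb) and 2.45 (Calb1). Without that library the fitted values were -0.096 for Calb1 and -0.055 for Rorb.

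Otof stood apart from the other 4 in the size of its difference. It ran from 3.78 to 31.2 CPM (median 15.5) in the 14 sham vehicle libraries, against 6.81 to 31.7 CPM (median 18.9) in the 20 injured vehicle libraries. The ranges were nearly the same, and 14 of 20 injured libraries were above the sham median. The log2 fold change of 0.22 ± 0.16 did not pass (unadjusted p of 0.179, adjusted p of 1, edgeR quasi-likelihood), although only 0.0208% of genes had a larger one. Otof is also among the most variable genes, as given above. In sham vehicle mice the other genes spread more widely than in injured vehicle mice, Cux2 from 64.4 to 233 CPM, Calb1 from 20.8 to 181 CPM and Rorb from 23.9 to 124 CPM, with female replicate 1 at the low end and female replicate 5 at the high end.

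Injured mice given SB were next set against sham mice given vehicle, a comparison that shares its libraries with the preceding ones. All 5 genes were higher in the fit, with a median log2 fold change of 0.18, where 50.2% of genes were above 0. Otof had a log2 fold change of 0.50 ± 0.16 (95% interval 0.18 to 0.82), the largest of the 9636 genes in this fit, with an unadjusted p of 0.00315 and an adjusted p of 0.329 (edgeR quasi-likelihood, Benjamini-Hochberg). Cux2 followed with 0.27 ± 0.09 (adjusted p of 0.329) and Cux1 with 0.18 ± 0.08 (adjusted p of 0.366). These 3 genes had an unadjusted p below 0.05 in the higher direction, as did 5.64% of all genes, and no gene passed adjustment (1211 by edgeR and 1271 by DESeq2 were below 0.05 unadjusted). Rorb was at 0.17 ± 0.14 and Calb1 at 0.13 ± 0.14, and without female sham vehicle replicate 1 they were at 0.09 and 0.03. Otof was at 0.42 without that library, its lowest value in the 58 fits that each left out 1 library. The first rank of Otof by fold change belongs to a gene with a wider residual spread than 99.6% of genes. Without the 4 libraries that stood apart, Otof was at 0.47 ± 0.16, Cux2 at 0.22 ± 0.08 and Cux1 at 0.15 ± 0.08, Cux1 then having an unadjusted p of 0.0664 (edgeR quasi-likelihood).

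In sham mice the SB arm had 5 libraries. Cux2 was 131, 171, 179, 186 and 200.5 CPM in them, against 64.4 to 233 CPM (median 148) in the 14 sham vehicle libraries. Of the 5, 4 lay above the vehicle median and none above its maximum. The log2 fold change of Cux2 was 0.27 ± 0.14 (unadjusted p of 0.0486, adjusted p of 0.677, edgeR quasi-likelihood with Benjamini-Hochberg), and it was 0.22 ± 0.12 (unadjusted p of 0.0741) without the 4 libraries that stood apart. In a fit of the sham groups alone Cux2 was at 0.42 ± 0.17, Cux1 at 0.26 ± 0.13, Otof at 0.22 ± 0.29 and Rorb at 0.33 ± 0.21, and all adjusted p-values were 0.972 by edgeR. Cux2 was the 1 member of 5 with an unadjusted p below 0.05, beside 7.02% of all genes, and no gene passed adjustment (676 by edgeR and 703 by DESeq2 unadjusted). Within the 4 cohorts that hold both sham arms, Cux2 was higher with SB in 4 of 4, from 0.12 to 1.03, and Cux1 in 4 of 4, from 0.03 to 0.55. The highest of these Cux2 differences came from F2, whose sham vehicle library was replicate 1.

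The remaining members gave no clear difference between the sham arms. Log2 fold changes were 0.14 ± 0.12 for Cux1, 0.09 ± 0.24 for Otof, 0.05 ± 0.22 for Rorb and -0.04 ± 0.22 for Calb1. The direction of the last 3 turned in other fits, with Otof at -0.10 without a cohort term, Rorb at -0.03 without the 4 libraries that stood apart, and Calb1 at 0.15 in the cohorts with all 4 conditions and at 0.27 in a fit of the sham groups alone. The injury by SB interaction, the test of whether the SB difference is unlike in injured and sham mice, was -0.001 ± 0.16 for Cux2 (95% interval -0.32 to 0.32) and 0.02 ± 0.14 for Cux1. It was 0.19 ± 0.29 for Otof, 0.17 ± 0.26 for Calb1 and 0.10 ± 0.25 for Rorb. In the cohorts that hold all 4 conditions the interaction was -0.31 ± 0.20 for Cux2, -0.15 ± 0.15 for Cux1 and -0.16 ± 0.32 for Otof. There it was -0.11 ± 0.33 for Calb1 and -0.20 ± 0.27 for Rorb, and the share of all genes below 0 was not counted. These cohorts include F2, whose sham vehicle library, female replicate 1, was the lowest of all 58 for each of the 5 genes. Within F2, log2 CPM in sham mice was higher with SB by 0.23 (Cux1) to 2.11 (Otof). The part of that library in this fit of the interaction was not tested. None of the 5 had an unadjusted p below 0.05 for it, as did 1.38% of all genes, with 0 genes passing adjustment (133 by edgeR and 144 by DESeq2 unadjusted). In the fit of all libraries, an interaction as large as the SB difference in injured mice would lie inside these intervals.

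**Figure D3:**
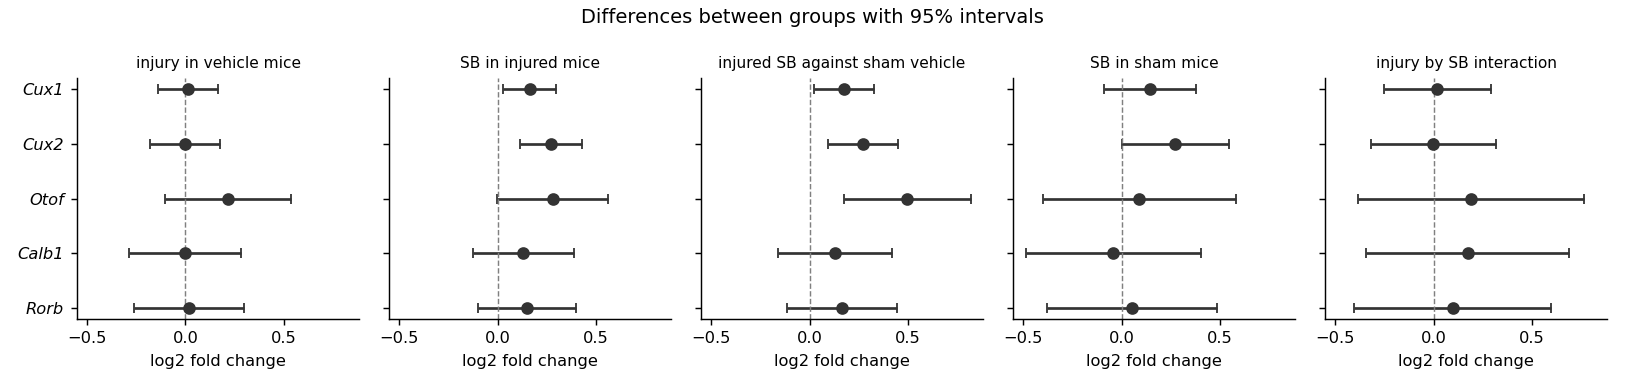
Fitted log2 fold change of each gene (points) with its 95% interval (bars) in 5 comparisons over both sexes. Intervals of Cux1 and Cux2 exclude 0 for SB in injured mice, those of Cux1, Cux2 and Otof exclude 0 for injured SB against sham vehicle, and none of these passes adjustment over 9636 genes.

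The sexes gave similar SB differences for Cux2. In injured females it was 0.26 ± 0.10 (unadjusted p of 0.0134) and in injured males 0.29 ± 0.12 (unadjusted p of 0.0215), and the difference between the sexes was 0.03 ± 0.16 (95% interval -0.29 to 0.35, edgeR quasi-likelihood, males minus females). Cux2 was the 1 member below 0.05 unadjusted in each sex, beside 7.21% of all genes in females and 1.88% in males. The other members had fitted values above 0 in both sexes, Otof at 0.35 ± 0.18 in females and 0.21 ± 0.22 in males, and Cux1 at 0.13 ± 0.09 and 0.20 ± 0.10. Calb1 was at 0.08 ± 0.16 and 0.18 ± 0.20, and Rorb at 0.10 ± 0.16 and 0.20 ± 0.19. Without the 4 libraries that stood apart, Calb1 in females was at 0.01 ± 0.12. Single libraries moved these values: without female injured SB replicate 5, Rorb in females was at -0.002 and Calb1 at 0.004. In males, Otof was at 0.09 without injured vehicle replicate 7, and Calb1 was at 0.08 and Rorb at 0.10 without injured SB replicate 2.

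For injury in vehicle mice, Otof and Rorb differed most between the sexes in size. Otof was higher by 0.42 ± 0.20 in injured females (unadjusted p of 0.0347, adjusted p of 1, edgeR quasi-likelihood), where 3.14% of genes were below 0.05 unadjusted, and was at 0.01 ± 0.25 in males, where 3.55% of genes were. Without female sham vehicle replicate 1, the difference in females was 0.28. Rorb was at -0.21 ± 0.17 in females and 0.25 ± 0.22 in males. It was at -0.06 in females without sham vehicle replicate 5 and -0.36 without replicate 1, and in males at 0.46 without sham vehicle replicate 1 and 0.15 without replicate 4. The differences between the sexes did not pass, at -0.41 ± 0.32 for Otof (unadjusted p of 0.198) and 0.46 ± 0.28 for Rorb (unadjusted p of 0.105), with adjusted p-values of 0.786 by edgeR's quasi-likelihood test. No member was below 0.05 unadjusted for either sex difference, beside 6.13% of genes for the injury effect and 0.913% for the SB effect. No gene passed adjustment in these 6 tests by edgeR or DESeq2. At an unadjusted p below 0.05, edgeR and DESeq2 gave 303 and 311 genes for injury in females, 342 and 373 for injury in males, 695 and 728 for SB in females, 181 and 197 for SB in males, 591 and 622 for the sex difference of injury and 90 by DESeq2 with 88 by edgeR for that of SB.

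Cohort was the one tested factor for which members passed the threshold, and levels were not tested between the sexes. In females, Otof (adjusted p of 0.000243), Cux2 (0.00179) and Cux1 (0.00353) differed between the 4 cohorts by edgeR's quasi-likelihood test with Benjamini-Hochberg adjustment, while Rorb (0.15) and Calb1 (0.259) did not pass. This is 3 of 5 genes where 50% of all genes passed. Otof, the otoferlin gene, was highest in F4, in levels not adjusted for condition, with 26.7 to 49.5 CPM (mean 33.6 ± 9.13, n = 5), and lowest in F2, with 3.78 to 21.1 CPM (mean 14.2 ± 6.43, n = 6). The ranges of these 2 cohorts did not overlap. Cux1 had the reverse place in F4, with its lowest mean of 110.5 ± 13.7 CPM there against 147 ± 14.4 CPM in F1 (n = 10) and 144 ± 24.6 CPM in F3 (n = 14). Cux2 was lowest in F2 (124 ± 34.0 CPM) and highest in F3 (181 ± 34.3 CPM). The 3 calls in females held when any single library was left out, with adjusted p-values of up to 0.0193 for Cux2 without female sham vehicle replicate 1.

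In males no member passed, with adjusted p-values from 0.152 (Cux1) to 0.931 (Calb1) beside 3.83% of all genes. The number of genes behind that share, 369, depended on single libraries: it was 28 without male sham vehicle replicate 1, 769 without female sham vehicle replicate 7 and 1258 without the 4 libraries that stood apart. Otof had its highest male mean in M4 (21.45 ± 5.10 CPM, n = 5) and its lowest in M3 (13.7 ± 4.68 CPM, n = 6). The cohort that was lowest for Cux1 in males was M4 (119 ± 8.89 CPM).

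Across the 58 libraries, after the group and cohort means were removed, the genes moved together to unequal degrees. The closest pair was Cux1 with Rorb, at a Pearson's r of 0.828 and a Spearman's rho of 0.815, followed by Calb1 with Rorb (r of 0.749, rho of 0.637) and Cux1 with Cux2 (r of 0.727, rho of 0.676). Each had a permutation p of 1e-05, the smallest that 100000 draws can give, or 2.5e-05 after Benjamini-Hochberg adjustment over 25 relations. The draws shuffled 58 residuals although the fit left 44 residual degrees of freedom, so the permutation p-values can be too small. Leaving out the 2 libraries farthest from the median of the first gene gave an r of 0.797, 0.647 and 0.687. Both genes of a pair were read from the same library and tissue piece.

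Otof followed Cux2 (r of 0.683, rho of 0.709, r of 0.607 without 2 libraries) more than it followed the others. With Calb1 it had an r of 0.501 (rho of 0.408, permutation p of 0.00012, adjusted 0.000231) that dropped to 0.337 without 2 libraries. With Cux1 the r was 0.272 (rho of 0.315, permutation p of 0.0388, adjusted 0.051) and with Rorb 0.250 (rho of 0.179, permutation p of 0.058, adjusted 0.0725). The remaining pairs, Cux1 with Calb1, Cux2 with Calb1 and Cux2 with Rorb, had an r of 0.644, 0.648 and 0.641 (rho of 0.605, 0.533 and 0.542). Within females (n = 35) and within males (n = 23), r was 0.819 and 0.884 for Cux1 with Rorb, 0.790 and 0.620 for Calb1 with Rorb, and 0.753 and 0.699 for Cux1 with Cux2. It was 0.740 and 0.494 for Cux1 with Calb1, 0.734 and 0.400 for Cux2 with Calb1, and 0.654 and 0.608 for Cux2 with Rorb. For Otof it was 0.723 and 0.590 with Cux2, 0.545 and 0.377 with Calb1, 0.334 and 0.168 with Cux1, and 0.300 and 0.124 with Rorb.

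All 5 genes ran against the mean of 18 measured deep layer markers and of 15 myelin markers. For the deep layer list r was -0.560 for Cux2 (rho of -0.577), -0.524 for Cux1 (rho of -0.560), -0.513 for Calb1 (rho of -0.573), -0.325 for Rorb (rho of -0.416) and -0.295 for Otof (rho of -0.267). For the myelin list, genes of the axon sheath that oligodendrocytes make, r was -0.680 for Cux2 (rho of -0.692), -0.579 for Calb1 (rho of -0.594), -0.537 for Otof (rho of -0.528), -0.428 for Cux1 (rho of -0.390) and -0.324 for Rorb (rho of -0.360). Permutation p-values of these 10 values of r, adjusted over the 25, were up to 0.0348, and that of the rho of Otof with the deep layer list was 0.0575. Without the 2 libraries farthest on the list, r with myelin ran from -0.662 (Cux2) to -0.31 (Rorb). With the deep layers it then ran from -0.559 (Cux1) to -0.233 (Otof), with Cux2 at -0.547. For Otof with the deep layers, r was -0.354 in females and -0.166 in males. With the mean of 7 striatal markers r lay between -0.044 and 0.166, with adjusted permutation p-values of 0.242 or more.

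**Figure D4:**
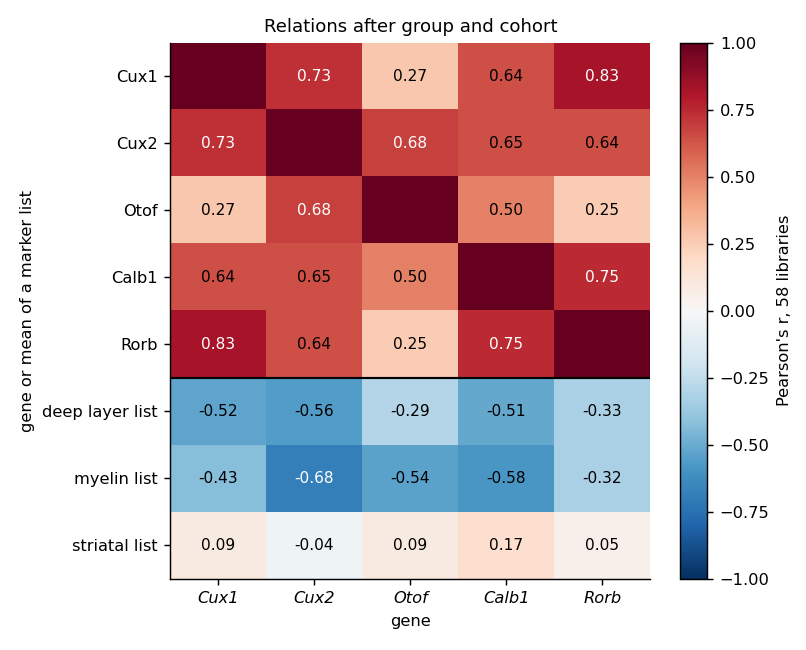
Pearson's r across 58 libraries between the residual log2 CPM of the 5 genes (upper block) and between each gene and the mean of a marker list (lower block), on a colour scale from -1 to 1. Cux1 and Rorb form the closest pair (0.83), Otof is close to Cux2 (0.68) and far from Rorb (0.25), and the deep layer and myelin lists are negative for all 5 genes.

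The genes of the whole table most like each member were found by the same residual correlation over 58 libraries, where the median gene lay near 0. For Cux1 these were Rorb (0.828), Rassf3 (0.808) and Tmem215 (0.808). For Cux2 they were Nptxr (0.850), a neuronal pentraxin receptor, Stard8 (0.829) and Fstl4 (0.794). Otof was closest to Cux2 (0.683), Ikzf4 (0.682), a zinc finger factor of the Ikaros family, and Arhgap33 (0.670). Rorb was closest to the cell adhesion gene Cdh6 (0.893), the netrin receptor gene Unc5d (0.883) and Negr1 (0.856). Calb1 was closest to Pdp1 (0.883), the transcription factor gene Bhlhe22 (0.868) and the growth factor homologue gene Fgf13 (0.863). The likeness of Otof and Cux2 was unequal in rank, since Cux2 was first for Otof and Otof was at rank 38 for Cux2. Calb1 had many closer neighbours than the members, with Rorb at rank 83 and Otof at rank 914.

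Other upper layer genes had smaller medians than the 5 in the comparison of SB with vehicle in injured mice. Of 17 other layer 2/3 genes, 14 were above 0 and 3 below, with a median log2 fold change of 0.10, and 4 had an unadjusted p below 0.05, all of them higher, where 3.41% of all genes did. Plxnd1, a semaphorin receptor, was at 0.17 ± 0.06 (unadjusted p of 0.00416) and Stard8 at 0.21 ± 0.09 (unadjusted p of 0.0209), with adjusted p-values of 0.655 and 0.681 by edgeR's quasi-likelihood test. The 3 measured of 6 other layer 4 genes had a median of 0.07, and all were above 0, among them Thsd7a at 0.09 ± 0.08 and Whrn at 0.07 ± 0.11. For injury in vehicle mice, the layer 2/3 genes had a median of 0.01, with Mdga1 at 0.17 ± 0.10 and Inhba, an activin subunit, at -0.17 ± 0.13. In the same comparison the 3 layer 4 genes had a median of -0.06, with Whrn at -0.09 ± 0.12 and Rspo1, a Wnt agonist, at -0.06 ± 0.11.

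Most deep layer genes lay on the other side of 0 with SB in injured mice. Of 18 measured, 14 were below 0, with a median log2 fold change of -0.09, and 2 had an unadjusted p below 0.05 in the lower direction, beside 3.64% of all genes. Pcp4, a calmodulin-binding protein, was at -0.27 ± 0.11 and Crym, a thyroid hormone binding protein, at -0.19 ± 0.09, with adjusted p-values of 0.67 and 0.697 by edgeR's quasi-likelihood test. With SB in sham mice, an arm of 5 libraries, 13 of the 18 deep layer genes were above 0 and 5 below. Their median was 0.04, against -0.0087 over all genes, and the share of all genes above 0 was not counted there. In that comparison 0 of the 18 had an unadjusted p below 0.05 (edgeR quasi-likelihood), beside 7.02% of all genes. For injury in vehicle mice the deep layer median was 0.03, with Rprm at 0.14 ± 0.11 and Tle4, a co-repressor, at 0.09 ± 0.09. Relatives of the 5 genes in sequence or family had a median of -0.04 with SB in injured mice over 4 measured. Among them the calcium buffer Pvalb was at -0.13 ± 0.08 and the chromatin organiser Satb1 at -0.05 ± 0.04. For injury, Pvalb was at -0.11 ± 0.09 and Rora, the closest relative of Rorb in the list, at 0.02 ± 0.07.

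Markers of other cells are given beside the 5 genes, and none of them passed adjustment. Of 15 myelin genes, 14 were below 0 with SB in injured mice and had an unadjusted p below 0.05, where 3.64% of all genes did in that direction, and the median of the list was -0.33. Opalin, a membrane protein of oligodendrocytes, was at -0.38 ± 0.12 (adjusted p of 0.655 by edgeR's quasi-likelihood test). The summed myelin level was 2904 to 11510 CPM (mean 6929 ± 2094) in injured SB libraries against 5824 to 13450 CPM (8639 ± 1831) in injured vehicle libraries. The 7 measured striatal genes were all above 0, with a median of 0.21 and Ppp1r1b at 0.31 ± 0.15. By sex, the list had a median of 0.04 in injured females, with 5 of 7 above 0. In injured males its median was 0.48, with 7 of 7 above 0. The summed level of the 7 genes ran from 417 to 1943 CPM with SB against 389 to 920.2 CPM with vehicle. The medians were close, at 479 and 469 CPM, and the 1943 CPM came from male injured SB replicate 1. The part of the myelin and striatal levels in the differences of the 5 genes was not tested.

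**Figure D5:**
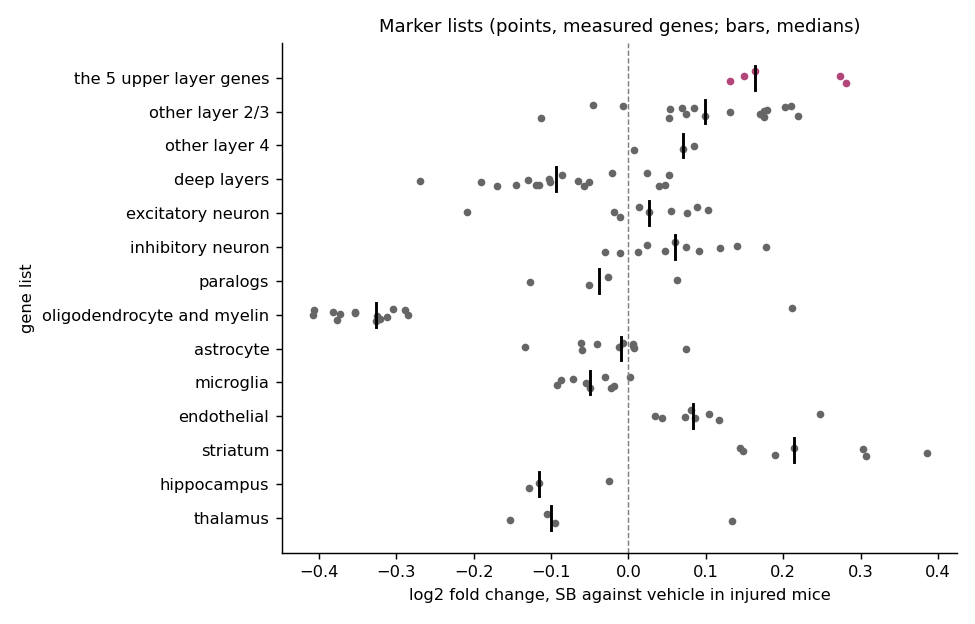
Fitted log2 fold change for SB against vehicle in injured mice (x axis) of each measured gene (points) in the 5 upper layer genes and 13 marker lists (rows), with bars at the medians. The 5 genes have a median of 0.16, the other layer 2/3 genes 0.10, the deep layer genes -0.09 and the myelin genes -0.33.

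General neuronal and glial lists had medians nearer 0 in that comparison. Excitatory neuron genes had a median of 0.03 over 9, with Camk2a at 0.10 ± 0.06 and the neuronal factor Neurod6 at -0.21 ± 0.06 (unadjusted p of 0.00075, adjusted p of 0.655, edgeR quasi-likelihood). Inhibitory neuron genes had a median of 0.06 over 11, with the GABA transporter gene Slc32a1 at 0.14 ± 0.06 and Dlx1 at 0.12 ± 0.05. Of these 11, 9 were above 0 and 2 below, where 52.2% of all genes were above 0. An unadjusted p below 0.05 (edgeR quasi-likelihood) was found for 3 of them, all higher, beside 3.41% of all genes. Astrocyte genes had a median of -0.01 over 10 (S100b at -0.13 ± 0.07, Glul at -0.06 ± 0.04) and microglial genes -0.05 over 9 (Cx3cr1 at -0.07 ± 0.05, P2ry12 at -0.09 ± 0.08). Endothelial genes had a median of 0.08 over 8, with 8 of 8 above 0, Vwf at 0.25 ± 0.11 and Cdh5 at 0.12 ± 0.07. Of other brain regions, 3 measured hippocampal genes had a median of -0.12 (Cabp7 at -0.13 ± 0.08, Prox1 at -0.12 ± 0.09). The 4 measured thalamic genes had a median of -0.10 (Ramp3 at -0.15 ± 0.06, Prkcd at 0.13 ± 0.11).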

How the data were processed

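The authors deposited raw read counts per gene for 58 libraries of polyadenylated RNA, prepared with a directional kit per the labels. The submitters' processing notes name STAR, featureCounts, DESeq2 and the build GRCm39 (mm39). Their versions and strand setting were not given in the sources used here, so reads of overlapping genes may be mixed. No listed gene falls below a mean of 270.1 counts, so weakly expressed genes were left out of the table. The tests used edgeR 4.0.16 under R 4.3.3 (TMM, robust quasi-likelihood fit) on 8 groups of sex, injury and treatment with the 4 cohorts of each sex as fixed effects (14 coefficients, 44 residual degrees of freedom). Tests were two-sided and adjusted by Benjamini-Hochberg over 9636 genes at 0.05. A result for both sexes averages the difference in females and that in males. SE is the standard error of a log2 fold change, SD the spread of libraries, and intervals are at 95%. Exonic lengths are unions of GENCODE exons. Library totals over the listed genes were 28316280 to 49158277 counts. No pair of libraries within a group agreed within sampling noise (chi-square divided by its degrees of freedom, 9.83 or more). The statistics were tested on simulated data, in which the 95% intervals held the set change somewhat less often than 95%.

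Alternatives were DESeq2 1.42.0 and its size factors, filters on low counts, no cohort term, pooled sexes, a replicate block, fewer groups or cohorts, each library left out in turn and, chosen after the data were seen, omission of the 4 libraries that stood apart. The members and the marker lists were chosen with earlier results of these data known. Named genes are the 5 members, for each list the 2 genes of smallest p for SB in injured mice, for the layer lists and the relatives also the 2 for injury in vehicle mice, and the 3 genes whose residual log2 CPM (prior count 2) correlated best with each member. Of the genes this rule names, 2 are not reported here.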

Additional observations from a re-analysis of the deposited data

Results flagged for a closer look

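The 5 genes were checked in each of the 4 groups of 4 to 10 libraries, 20 sets in all, for a highest or lowest library far from the rest. In 1 set the gap passed the limit for its size: Cux2 in male injured vehicle replicate 8 was 201.0 CPM, and the next highest of the 8 libraries was at 157.7 CPM. The gap was 0.556 of the range of the group, against a limit of 0.526. Such a gap is met by chance in about 1 of 20 groups. Without that library the log2 fold change of Cux2 with SB in injured males was 0.36, against 0.29 with it.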

How the results depend on the processing

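The SB differences of the 5 genes in injured mice stayed above 0 under every alternative run, with the log2 fold change of Cux2 between 0.24 and 0.31, and no gene of the table passed an adjusted p of 0.05 in any condition comparison. Values that changed sign are given next, and the cause was not tested. A mean count of at least 1000 gave 0.0085 for the Cux2 interaction and left Otof untested. Without a cohort term, injury was -0.0027 for Cux1 and, in females, -0.013 for Cux2 and -0.054 for Calb1. That fit gave -0.10 for Otof with SB in sham mice, 0.083 for the Cux2 interaction and 0.025 for Calb1 in the sex difference of injury. With sexes pooled, injury was -0.024 for Cux1, 0.012 for Cux2, 0.0017 for Calb1 and -0.055 for Rorb, and SB in sham mice was -0.021 for Rorb. With only the groups compared, SB in sham mice was 0.27 for Calb1 and injury in males -0.058 for Otof. In cohorts that hold all 4 conditions, SB in sham mice was 0.15 for Calb1, and the interaction was -0.15 for Cux1, -0.16 for Otof, -0.11 for Calb1 and -0.20 for Rorb. Without the 4 libraries that stood apart, Rorb was -0.049 for injury and -0.035 for SB in sham mice, and the Cux2 interaction was 0.025. In that fit injury in females was -0.047 for Cux2 and -0.12 for Calb1, injury in males 0.0065, -0.0041 and 0.091 for Cux2, Otof and Calb1, the sex difference of injury 0.054 for Cux2 and 0.21 for Calb1, and the genes differing between male cohorts 1258.

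Leaving out 1 library at a time gave sign changes in these ranges. Injury was -0.096 to 0.055 for Calb1, -0.035 to 0.055 for Cux1, -0.063 to 0.041 for Cux2 and -0.055 to 0.12 for Rorb. Injury in females was -0.17 to 0.13 for Calb1 and -0.053 to 0.13 for Cux2, and in males -0.12 to 0.091 for Calb1, -0.18 to 0.0076 for Cux2 and -0.086 to 0.16 for Otof. The sex difference of injury was -0.15 to 0.14 for Calb1 and -0.22 to 0.0011 for Cux2, and that of SB was -0.0065 to 0.12 for Cux1 and -0.042 to 0.098 for Cux2. SB in sham mice was -0.035 to 0.20 for Otof and -0.035 to 0.14 for Rorb, SB in injured females -0.0019 to 0.15 for Rorb, and the interaction -0.036 to 0.079 for Cux1 and -0.042 to 0.078 for Cux2. Genes differing between male cohorts numbered 28 to 769.

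Replicate numbers did not pair the libraries: residuals of 62 pairs with the same number had a mean correlation of -0.0168, and 4 of 58 libraries correlated best with their own number. With the number as a replicate block, 0 genes passed, as without it, and Cux2 with SB in injured mice was 0.28 ± 0.07. The block gave -0.043 for Cux1, 0.017 for Calb1 and -0.043 for Rorb for injury, 0.038 for Calb1 and -0.017 for Rorb for SB in sham mice, and 0.037 for the Cux2 interaction. The smallest groups of the fit were 3 female and 2 male sham SB libraries.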
